A study of Mus musculus with 6 samples.

Results

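The genes described here are 40 NRF2 targets and antioxidant enzymes, chosen by name with earlier results of these data known. They are the transcription factor NRF2 (*Nfe2l2*) and its inhibitor KEAP1, and the enzymes of glutathione, thioredoxin, peroxide, superoxide, heme, quinone and NADPH metabolism. Of the 40 genes, 36 were measured among the 18193 genes tested. *Prdx1* was read only by probe sets that carry several gene symbols, and *Prdx5*, *Prdx6* and *G6pdx* were named for no probe set in the annotation used, so these 4 have no value here. Whole-genome mouse Affymetrix arrays measured RNA of microglia sorted from the lumbar spinal cord, with 3 arrays from SOD1 G93A mice and 3 from WT littermates. The SOD1 G93A mice carried many copies of a human *SOD1* transgene with the G93A mutation that causes familial amyotrophic lateral sclerosis (ALS), on the mixed B6SJL background. Mice of both genotypes were males of 90 days, an early symptomatic age in this model, and each array held cells of several pooled mice. Cells were taken as CD11b-positive and viable by flow cytometry after enzymatic dissociation and myelin removal. CD11b is also carried by neutrophils, monocytes and other macrophages. Nothing in the sources ties an array to a single animal, so p-values measure the spread between pools.

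NRF2 is held by KEAP1, which presents it to a ubiquitin ligase for degradation. Oxidants and electrophiles modify cysteines of KEAP1, after which NRF2 accumulates, pairs with a small MAF protein and binds the antioxidant response element of its target genes. These targets make and recycle glutathione and thioredoxin, regenerate NADPH, and dispose of heme and quinones. Microglia, the resident macrophages of the central nervous system, release superoxide through their NADPH oxidase and rely on these enzymes to reduce the peroxides that follow. The transgene product is itself an antioxidant enzyme, the cytosolic superoxide dismutase.

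All values are log2 signals. The 9 measured microglia markers summed to 53000 to 58000 linear signal units on the SOD1 G93A arrays and to 51300 to 57400 on the WT arrays, with *Fcrls* higher (1.07), *Sall1* lower (-0.83) and 7 not past limma's test. Sums for most other cell types were lower in the SOD1 G93A libraries without overlap (exact two-sided permutation p = 0.1 each). Astrocyte markers summed to 1250 to 2130 against 2860 to 5430 in WT, oligodendrocyte markers to 9690 to 10800 against 15900 to 23400, and neurone markers to 477 to 558 against 856 to 969. Monocyte markers summed to 8240 to 13400 in SOD1 G93A arrays and to 14300 to 24400 in WT arrays, and border macrophage markers to 3350 to 4590 against 6210 to 6940. Neutrophil markers, at 53600 to 79600 in SOD1 G93A and 68000 to 113000 in WT, overlapped between genotypes (exact p = 0.3), and endothelial markers ran higher, at 666 to 872 against 545 to 652. In the same order, 5 of 10 astrocyte, 2 of 9 oligodendrocyte, 3 of 10 neurone, 5 of 7 monocyte, 4 of 8 border macrophage and 0 of 8 neutrophil markers were lower in that test at an adjusted p under 0.05, while 1 neurone marker (*Eno2*) and 1 endothelial marker (*Flt1*) were higher. The *Gapdh* 3′ minus 5′ signal, a measure of RNA integrity and amplification, averaged 4.13 log2 units in SOD1 G93A and 4.89 in WT (exact p = 0.1, the smallest that 3 arrays against 3 allow). The part of the marker lists and of this RNA measure in the results that follow was not tested beyond the fits named. In such bulk samples, fewer cells of a type and less RNA per cell cannot be told apart.

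Among the 36 measured members, *Prdx4* and *Srxn1* were higher in SOD1 G93A microglia, *Gstm1* and *Pgd* were lower, and 32 did not pass the test. These calls made up 11.1% of the members, against 6.63% of all genes (1206 of 18193). By direction, 5.56% of members were higher and 5.56% lower, against 4.09% and 2.53% of all genes. Without adjustment, 14 members had a p under 0.05 in limma's test (38.9%, against 21.6% of all genes), 10 of them higher and 4 lower. The list did not shift as a whole. Its median log2 fold change, SOD1 G93A over WT, was -0.0485, beside 0.022 over all genes, with 16 members above 0 and 20 below. Changes ran between -0.90 for *Mgst1* and 1.39 for *Prdx4*. Of the 36 members, 28 moved by less than 0.5 in either direction, against 16516 of the 18193 genes. The median absolute log2 fold change was 0.27 for the members and 0.14 for all genes. The 3 SOD1 G93A arrays and the 3 WT arrays did not overlap for 13 members (36.1%, 9 higher and 4 lower), against 27.5% of all genes (16.6% higher and 10.9% lower). At the fold and unadjusted p set in the study's methods, 1 member passed, *Prdx4*, against 2.33% of all genes. All genes here include those with low signal, and no share given here or below is matched for signal. Among genes with a mean signal of at least 7, 6 members and 1357 genes passed. That is more genes than the 1206 called without this filter, so the share of genes called depends on signal.

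The *Gapdh* 3′ to 5′ measure did not overlap between genotypes (3.47 to 4.63 in SOD1 G93A, 4.79 to 5.01 in WT), so a fit with both terms separates them poorly. With it as a covariate 94 genes passed in all. *Prdx4* was then the only member past the test, while *Srxn1* gave 0.48 (adjusted p = 0.244), *Gstm1* -0.37 (0.370) and *Pgd* -0.55 (0.177). The standard error of *Srxn1* rose from 0.11 to 0.17 in that fit. Lost precision and a part of the RNA measure cannot be told apart in a call lost there.

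**Figure D1:**
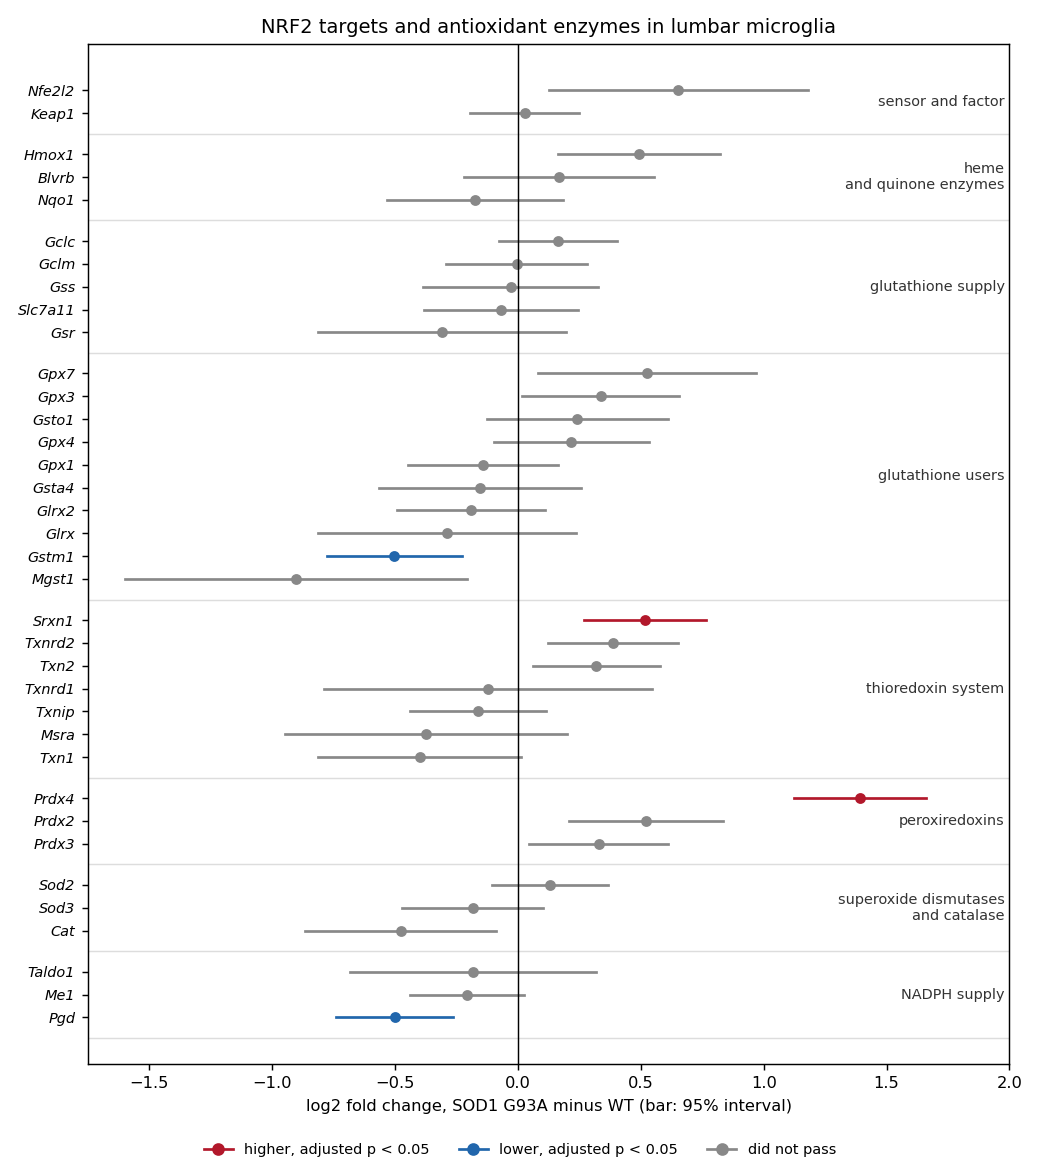
Log2 fold change of each of the 36 measured members (x axis, SOD1 G93A minus WT) with its 95% confidence interval from limma, grouped by role down the page and coloured by the outcome of the test. *Prdx4* stands apart at 1.39, and only *Prdx4*, *Srxn1*, *Gstm1* and *Pgd* pass.

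The peroxiredoxins, thiol peroxidases that reduce hydrogen peroxide and organic peroxides, were the role group with the largest median fold change (0.52). That median rests on 3 of the 6 listed, since *Prdx1*, *Prdx5* and *Prdx6* have no value. All 3 were higher on every SOD1 G93A array than on any WT array, against 16.6% of all genes. Of the 3, 1 passed, against 4.09% of all genes called higher. *Prdx4* encodes the peroxiredoxin of the endoplasmic reticulum, which passes oxidising equivalents to protein disulphide isomerases. Its signals were 9.46, 9.39 and 9.65 on the SOD1 G93A arrays, against 8.18, 8.17 and 7.97 on the WT arrays. The lowest SOD1 G93A array thus stood more than 1 log2 unit above the highest WT array. The difference was 1.39 (SE 0.12, 95% interval 1.12 to 1.66, 2.62-fold, adjusted p = 9.52e-04), and it passed with each array left out in turn. Of the other 3 *Prdx4* probe sets, those at 0.62 and 0.55 had adjusted p = 0.140 and 0.0521 over all probe sets. The remaining *Prdx4* probe set, at a mean signal of 3.57, gave -0.22.

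*Prdx2* encodes a cytosolic peroxiredoxin that is abundant in red blood cells and neurones. It read 9.67, 9.60 and 10.04 in SOD1 G93A microglia and 9.28, 9.33 and 9.14 in WT microglia. The groups did not overlap, and the difference of 0.52 (SE 0.14, 95% interval 0.21 to 0.84) had an adjusted p of 0.0596. It passed with low-signal genes removed or with array weights, at adjusted p between 0.0347 and 0.0478. The mean of its probe sets gave 0.39 (adjusted p = 0.101), and with the *Gapdh* covariate *Prdx2* was at 0.25 (0.538). Its second probe set gave 0.26. The sum of the 4 measured erythroid markers was 227 to 263 in SOD1 G93A and 346 to 472 in WT. Of the 4 erythroid markers, 3 had negative fold changes and *Alas2* passed as lower (-0.93, adjusted p = 0.0343), while *Hba-a1* was at 0.11 (adjusted p = 0.687). Of the 10 neurone markers, 8 were negative and 3 passed as lower, while *Eno2* was higher at 0.72 (adjusted p = 0.0283). The part of these cells in the *Prdx2* values was not tested. *Prdx3*, the mitochondrial peroxiredoxin, read 7.70, 7.55 and 7.91 in SOD1 G93A and 7.46, 7.44 and 7.28 in WT, a difference of 0.33 (adjusted p = 0.164) that was 0.17 with the *Gapdh* covariate.

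The thioredoxin system, which returns oxidised peroxiredoxins and other protein thiols to their reduced state, had 1 of 7 members higher and none lower. *Srxn1* encodes sulfiredoxin, which restores peroxiredoxins whose cysteine has been oxidised to sulfinic acid. It read 7.38, 7.47 and 7.47 in SOD1 G93A microglia and 6.92, 6.79 and 7.05 in WT microglia, with no overlap. The difference was 0.52 (SE 0.11, 95% interval 0.27 to 0.77, 1.43-fold, adjusted p = 0.0280). The call was not stable to single arrays. Without SOD1 G93A replicate 2 or 3 the adjusted p was 0.101 or 0.107, and without WT replicate 1, 2 or 3 it was 0.0514, 0.0972 or 0.0548. The other 3 *Srxn1* probe sets gave 0.30, 0.01 and 0.09, and the mean over all of them gave 0.23 (adjusted p = 0.158). The probe set that passed carries the suffix of a kind that can bind transcripts of other genes. With suffixed probe sets left out, *Srxn1* was at 0.30 and did not pass (adjusted p = 0.282).

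*Txnrd2*, the mitochondrial thioredoxin reductase, and *Txn2*, its thioredoxin substrate, were both higher on all SOD1 G93A arrays than on all WT arrays without passing the test. *Txnrd2* read 8.76, 8.47 and 8.65 in SOD1 G93A and 8.33, 8.15 and 8.24 in WT, a difference of 0.39 (SE 0.12, adjusted p = 0.0880). All 4 of its probe sets were free of overlap in this direction, and their mean passed (0.40, adjusted p = 0.0328). *Txn2* read 8.92, 8.96 and 9.15 in SOD1 G93A and 8.66, 8.81 and 8.60 in WT (0.32, adjusted p = 0.141), and the difference was 0.16 with the *Gapdh* covariate.

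The cytosolic reductase *Txnrd1*, a classical NRF2 target, showed no such separation. Its signals were 8.95, 8.70 and 7.64 in SOD1 G93A and 8.70, 8.39 and 8.56 in WT, and SOD1 G93A replicate 3 lay more than 1 log2 unit under the other two arrays of its group. The fitted difference was -0.12 with an interval of -0.79 to 0.55 (adjusted p = 0.868), and its other probe sets gave 0.34 and 0.08. Sign and size rested on that array: the difference was 0.28 without it, and 0.78 (adjusted p = 0.0774) with the *Gapdh* covariate. *Txnip*, the thioredoxin inhibitor, differed by -0.16 (adjusted p = 0.513).

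**Figure D2:**
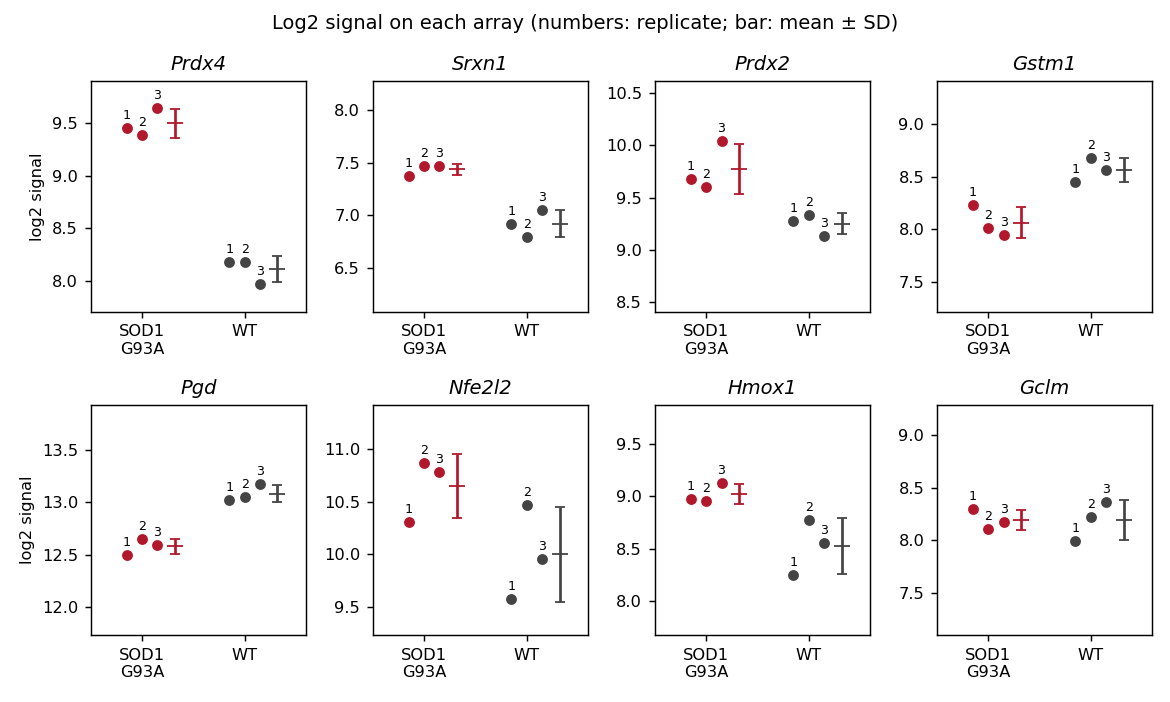
Log2 signal (y axis) of 8 members on each array, SOD1 G93A left and WT right in every panel, with the group mean and SD (n = 3 arrays each). *Prdx4*, *Srxn1*, *Prdx2* and *Hmox1* are higher on every SOD1 G93A array, *Gstm1* and *Pgd* are lower on every one, and *Nfe2l2* and *Gclm* overlap.

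The promoters of both members that rose are shown because NRF2 acts through a short motif near its target genes. RefSeq (GRCm38.p6) gives a window of 250 bases before to 50 after the transcription start for 30 of the 36 measured members. The motif searched was TGACNNNGC, the core of the antioxidant response element, on both strands, beside TGANTCA, the AP-1 motif. Capitals mark either motif, and each window runs 5′ to 3′ on the strand of its gene.
Prdx4, chrX:155338411-155338710, minus strand: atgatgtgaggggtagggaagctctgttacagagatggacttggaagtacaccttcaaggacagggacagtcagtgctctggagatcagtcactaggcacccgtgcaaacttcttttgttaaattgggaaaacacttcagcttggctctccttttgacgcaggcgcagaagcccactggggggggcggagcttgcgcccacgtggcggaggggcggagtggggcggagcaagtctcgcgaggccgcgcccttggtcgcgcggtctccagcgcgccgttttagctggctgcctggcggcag
Srxn1, chr2:152105274-152105573, plus strand: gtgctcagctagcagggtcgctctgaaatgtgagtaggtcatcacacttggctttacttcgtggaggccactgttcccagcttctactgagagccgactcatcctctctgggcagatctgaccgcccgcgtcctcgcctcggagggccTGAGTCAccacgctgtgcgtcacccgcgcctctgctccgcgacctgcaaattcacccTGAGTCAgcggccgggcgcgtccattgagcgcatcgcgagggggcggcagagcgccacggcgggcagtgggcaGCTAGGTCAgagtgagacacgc

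The *Prdx4* window held neither string of letters. The *Srxn1* window held 2 AP-1 matches, the second of them followed by GC. It also held 1 response element match that reads on the opposite strand and lies downstream of the start. The searched string TGACNNNGC does not cover TGAGTCAGC, the letters of that second AP-1 match with its GC, so that stretch was not counted. Over the members, 7 of 30 windows held the response element core (23.3%), against 14.0% of all genes with a window (3781 of 27025), and 3 held the AP-1 motif (10%, against 8.97%). The 7 were *Nfe2l2*, *Srxn1*, *Gclm*, *Pgd*, *Mgst1*, *Me1* and *Txnrd1*. Of these, *Srxn1* was higher in SOD1 G93A microglia and *Pgd* lower. The matches of 4 of them follow, with 8 bases on either side and the motif in capitals, read on the minus strand of the genome.
Nfe2l2, chr2:75704887-75704911: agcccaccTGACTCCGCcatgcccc
Gclm, chr3:122245415-122245439: gtgagagtTGACGGTGCgcccggga
Pgd, chr4:149166063-149166087: ttcagagcTGACATTGCactgatcg
Me1, chr9:86695904-86695928: tgccgccgTGACTCAGCgcttctcg

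The match in *Me1* also holds the AP-1 letters, TGACTCA. The match in *Pgd* lies just downstream of the transcription start and that in *Me1* spans it. A match is a string of letters in a window and was not measured as a binding site. Sequence outside the windows was not searched, so a gene without a match here may hold one elsewhere.

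NRF2 itself was measured with a wide spread. *Nfe2l2* read 10.30, 10.87 and 10.78 in SOD1 G93A microglia and 9.57, 10.47 and 9.95 in WT microglia, so WT replicate 2 lay above SOD1 G93A replicate 1. The difference was 0.65 (SE 0.23, 95% interval 0.13 to 1.18, adjusted p = 0.139). A second probe set gave 0.69 with no overlap (adjusted p = 0.0952 over all probe sets). *Nfe2l2* passed without both arrays numbered 1 (adjusted p = 0.0474) and in none of the 6 fits that left out a single array. With the *Gapdh* covariate the difference was 0.31 (adjusted p = 0.692). *Keap1* was level between the genotypes, at 8.82, 8.78 and 8.73 in SOD1 G93A and 8.77, 8.72 and 8.75 in WT (0.03, 95% interval -0.19 to 0.25, adjusted p = 0.916).

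None of the 5 classical NRF2 targets of heme, quinone and glutathione metabolism passed the test, and their fold changes had both signs. *Hmox1*, heme oxygenase 1, which opens heme to biliverdin, iron and carbon monoxide, came nearest. It read 8.98, 8.96 and 9.13 in SOD1 G93A and 8.25, 8.78 and 8.55 in WT, with no overlap (0.49, SE 0.14, 95% interval 0.16 to 0.82, adjusted p = 0.0813). It passed among genes with a mean signal of at least 7 (adjusted p = 0.0483), and was at 0.32 (0.508) with the *Gapdh* covariate. *Blvrb*, biliverdin reductase B, differed by 0.17 (adjusted p = 0.643).

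*Nqo1*, the quinone reductase that is often read as the reporter of NRF2 activity, read below the array medians (5.93 to 5.97), at 5.10, 4.87 and 4.96 in SOD1 G93A and 5.38, 5.27 and 4.80 in WT (-0.17, 95% interval -0.53 to 0.19, adjusted p = 0.595). The glutathione supply held no call among its 5 members. *Gclc* and *Gclm*, the catalytic and modifier subunits of the enzyme that limits glutathione synthesis, were both short of the test. *Gclc* read 8.54, 8.59 and 8.73 in SOD1 G93A and 8.38, 8.47 and 8.51 in WT, just free of overlap (0.16, 95% interval -0.08 to 0.40, adjusted p = 0.437). *Gclm* read 8.29, 8.10 and 8.17 in SOD1 G93A and 7.99, 8.22 and 8.37 in WT, with an interval of the difference of -0.29 to 0.28.

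*Slc7a11*, the light chain of the cystine and glutamate exchanger that feeds glutathione synthesis, read 6.98, 6.61 and 6.87 in SOD1 G93A and 6.89, 6.72 and 7.06 in WT (-0.07, 95% interval -0.38 to 0.24, adjusted p = 0.834). *Gss*, which completes glutathione, differed by -0.03, and *Gsr*, which reduces its oxidised form, by -0.31 (adjusted p = 0.947 and 0.486). The intervals of *Keap1*, *Gclc*, *Gclm* and *Slc7a11* all ended below 1.12, the lower bound of the *Prdx4* interval. So did those of all other measured members except *Nfe2l2*, whose interval ended at 1.18, and *Prdx4* itself.

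**Figure D3:**
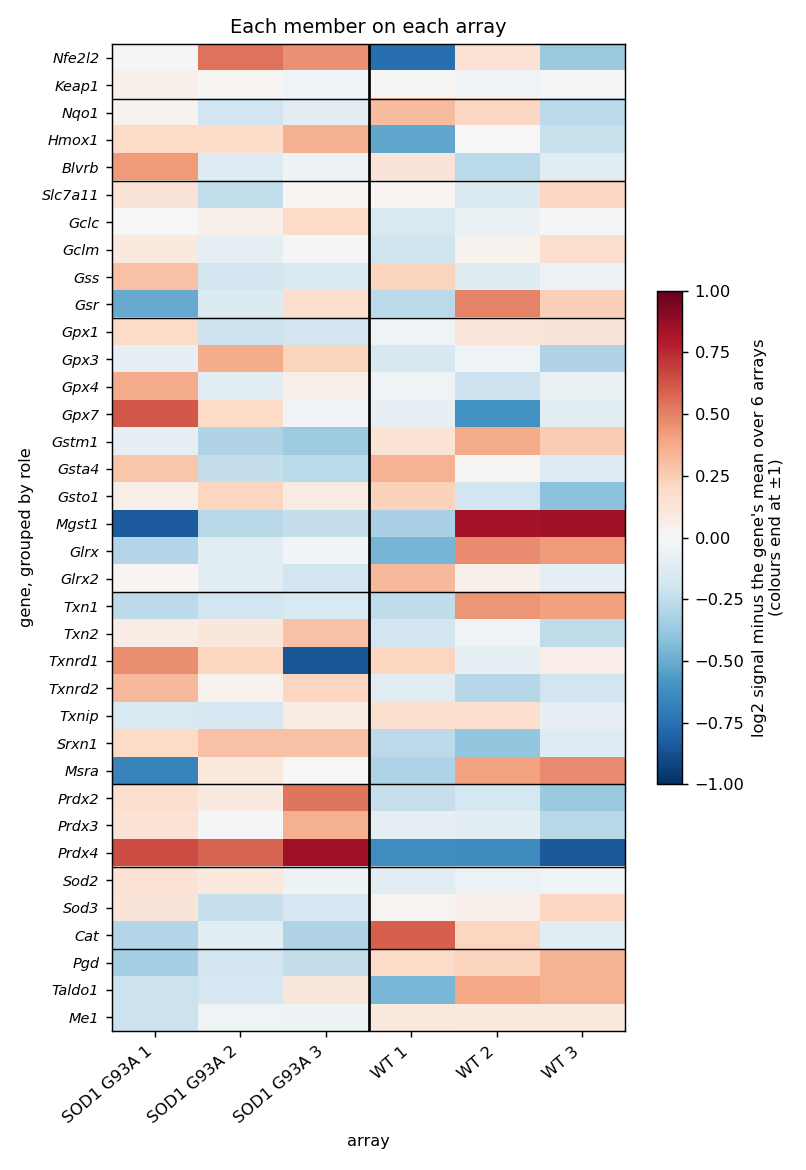
Signal of the 36 measured members (rows, by role) on each of the 6 arrays (columns, SOD1 G93A left of WT), as the log2 difference from the gene's mean over all arrays. *Prdx4* holds the strongest contrast between genotypes, and WT replicate 1 differs from the other WT arrays in several rows, *Mgst1* and *Glrx* among them.

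The 10 genes that use glutathione held 1 call, and it was lower. *Gstm1*, a glutathione S-transferase of the mu class that joins glutathione to electrophiles, read 8.23, 8.01 and 7.95 in SOD1 G93A microglia and 8.45, 8.68 and 8.57 in WT microglia, with no overlap. It fell by 0.50 (SE 0.12, 95% interval -0.78 to -0.23, 1.42-fold lower, adjusted p = 0.0425). All 4 of its probe sets were lower, the others by -0.41, -0.36 and -0.05. The call was lost without SOD1 G93A replicate 2 or 3 (adjusted p = 0.137 or 0.156), without WT replicate 2 or 3 (0.137 or 0.123) and with a mean-variance trend and robust moderation (0.0564). Mu-class genes are near copies of each other, and 2 of the 4 probe sets are of a kind that can bind more than 1 of them.

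*Mgst1*, the microsomal glutathione transferase, had the lowest fold change of the list without passing. It read 9.16, 9.71 and 9.75 in SOD1 G93A and 9.66, 10.82 and 10.84 in WT (-0.90, SE 0.31, 95% interval -1.60 to -0.21, adjusted p = 0.124), and passed with array weights (0.0383). With the *Gapdh* covariate it was at -1.37 (0.184). *Gpx7*, a peroxidase of the endoplasmic reticulum, read 5.65, 5.23 and 5.001 in SOD1 G93A and 4.95, 4.43 and 4.93 in WT (0.52, SE 0.20, adjusted p = 0.157). The selenium glutathione peroxidases differed by -0.14 (*Gpx1*), 0.34 (*Gpx3*) and 0.22 (*Gpx4*), with adjusted p between 0.204 and 0.615. *Gsta4*, *Glrx* and *Glrx2* were at -0.15, -0.29 and -0.19 and did not pass. *Gsto1* was at 0.24 (adjusted p = 0.449) on its brightest probe set. Its second probe set, which carries no cross-binding suffix, gave 0.78 (SE 0.12, adjusted p = 0.0122 over all probe sets), so the call for *Gsto1* depended on the probe set read.

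The superoxide dismutases and catalase held no call. *Sod2*, the mitochondrial dismutase, differed by 0.13, and the extracellular *Sod3* by -0.18 at a signal of 5.18 to 5.62. *Cat*, the peroxisomal catalase, was lower on every SOD1 G93A array than on any WT array, at 9.43, 9.61 and 9.43 in SOD1 G93A against 10.33, 9.95 and 9.63 in WT. Its difference was -0.48 (adjusted p = 0.143), while its second probe set gave 0.28.

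The 3 measured genes that supply NADPH were all at negative values. *Pgd*, 6-phosphogluconate dehydrogenase of the oxidative pentose phosphate pathway, read 12.50, 12.65 and 12.59 in SOD1 G93A microglia and 13.02, 13.05 and 13.17 in WT microglia. The groups did not overlap, and *Pgd* fell by 0.50 (SE 0.10, 95% interval -0.74 to -0.27, 1.42-fold lower, adjusted p = 0.0260). Of its other probe sets, 2 were lower and passed over all probe sets (-0.52, adjusted p = 0.0320, and -0.47, adjusted p = 0.0439), and the last gave 0.11. The 3 lower probe sets all carry the suffix of a kind that can bind transcripts of other genes, and the last does not. The call was lost without SOD1 G93A replicate 1, 2 or 3 (adjusted p = 0.0566, 0.0710 or 0.0898) and without WT replicate 2 or 3 (0.0753 or 0.0977). WT signals of *Pgd* lay above 13, where the highest signals of these arrays were 14.51 to 14.59, and any compression there was not tested.

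*Me1*, cytosolic malic enzyme, read 5.61, 5.78 and 5.78 in SOD1 G93A and 5.93, 5.93 and 5.93 in WT, without overlap (-0.21, adjusted p = 0.286). Its other probe set passed over all probe sets (-0.60, SE 0.11, adjusted p = 0.0239). *Taldo1*, transaldolase of the non-oxidative pentose phosphate branch, read 11.07, 11.11 and 11.39 in SOD1 G93A and 10.82, 11.67 and 11.63 in WT (-0.18, adjusted p = 0.702).

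Several members were low on the first array of a genotype. WT replicate 1 lay at least 0.5 log2 units below the mean of WT replicates 2 and 3 in 7 of the 36 members, against 3.77% of all genes (685). These were *Mgst1* (-1.17), *Glrx* (-0.91), *Taldo1* (-0.83), *Msra* (-0.75), *Txn1* (-0.69), *Nfe2l2* (-0.64) and *Gsr* (-0.63). *Cat* (0.54) and *Gsto1* (0.53) were as far above. SOD1 G93A replicate 1 was also at least 0.5 below the other SOD1 G93A arrays for *Msra* (-0.72), *Mgst1* (-0.57), *Nfe2l2* (-0.52) and *Gsr* (-0.52), but not for *Glrx* (-0.23), *Taldo1* (-0.18) or *Txn1* (-0.09). *Txn1*, cytosolic thioredoxin, read 11.385, 11.45 and 11.50 in SOD1 G93A, against 11.388, 12.09 and 12.06 in WT. *Glrx*, glutaredoxin, read 9.41, 9.60 and 9.67 in SOD1 G93A, against 9.24, 10.17 and 10.13 in WT. For *Txn1* and *Glrx*, WT replicate 1 was thus below or level with the SOD1 G93A arrays while the other WT arrays were above them.

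Without WT replicate 1, *Mgst1* (-1.29, adjusted p = 0.00643), *Txn1* (-0.63, 0.0172) and *Glrx* (-0.59, 0.0318) passed as lower. None of the 3 passed with all arrays (adjusted p = 0.124, 0.247 and 0.541). They are among the genes picked because WT replicate 1 was low. Leaving that array out raises their WT mean by that choice, so these passes are no separate result. *Msra*, which reduces oxidised methionine, read 7.07, 7.84 and 7.74 in SOD1 G93A and 7.42, 8.13 and 8.21 in WT, and *Gsr* read 6.77, 7.14 and 7.46 in SOD1 G93A and 7.01, 7.77 and 7.51 in WT. The summed neutrophil markers were also lowest on the first array of each genotype, at 53600, 75660 and 79570 in SOD1 G93A and 68040, 112800 and 112200 in WT. Monocyte sums were lowest there too (8237, 12810 and 13390 in SOD1 G93A, 14280, 24380 and 22810 in WT). So were oligodendrocyte sums (9693, 10780 and 9818 in SOD1 G93A, 15900, 23380 and 21570 in WT) and microglia sums. Astrocyte and neurone sums were highest on these first arrays. All 8 measured neutrophil markers had negative fold changes (median -0.49) and none passed. The part of any of these cell types in these members' values was not tested.

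**Figure D4:**
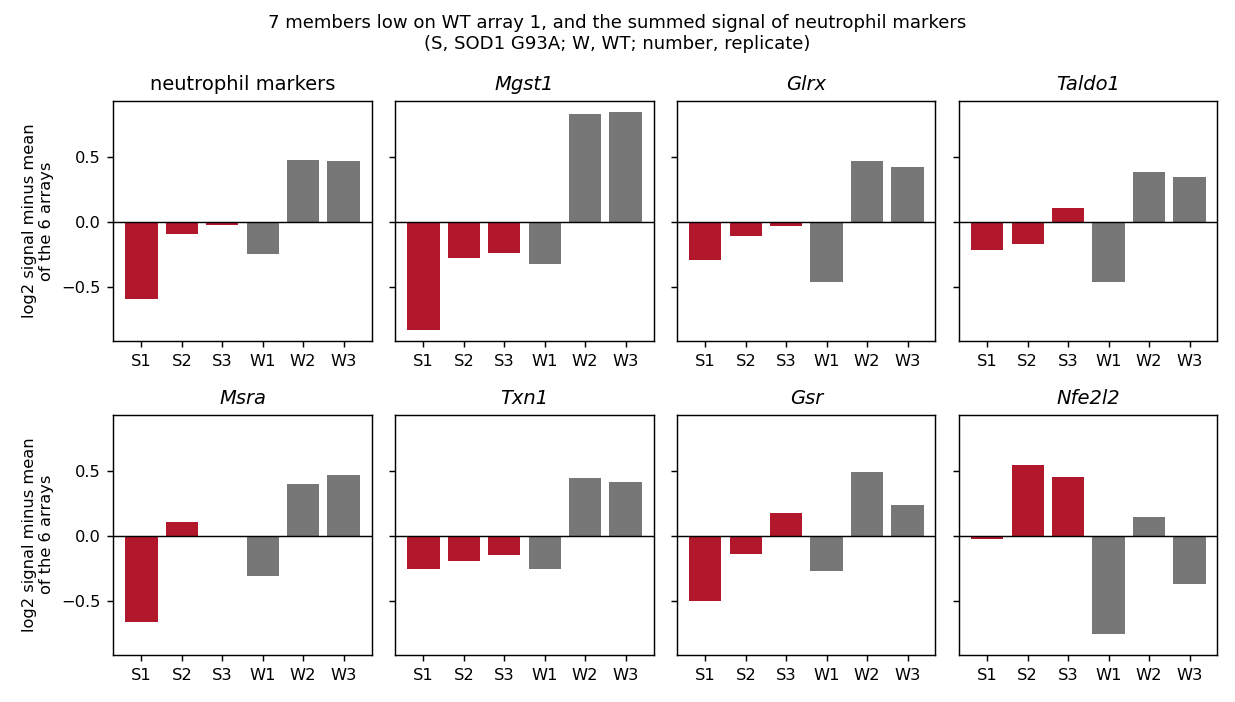
Bars show each array's log2 signal minus the mean of the 6 arrays (y axis) for the summed signal of 8 neutrophil markers and for *Mgst1*, *Glrx*, *Taldo1*, *Msra*, *Txn1*, *Gsr* and *Nfe2l2*, with SOD1 G93A (S, red) left of WT (W, grey) and the replicate number under each bar. The genes were chosen because WT replicate 1 lay at least 0.5 below the mean of WT replicates 2 and 3, so its low place in their panels follows from that choice. WT replicate 1 is also the lowest WT array for the neutrophil sum, as it is for the monocyte and oligodendrocyte sums, which are not shown.

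The 36 members were read by 77 probe sets, 10 members by 1 and 26 by several. For 18 of the 26, all probe sets of the gene had the same sign. Outside the probe sets chosen, 41 remained, of which 2 were higher (*Gsto1* and *Txnrd2*) and 3 lower (*Pgd* at 2 and *Me1*) with p adjusted over all 45037 probe sets. Over all probe sets, 4.64% passed. *Gstm1*, called over genes, had an adjusted p of 0.0515 over all probe sets. *Gpx4* had a second probe set at 0.61 without overlap (adjusted p = 0.0547).

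**Figure D5:**
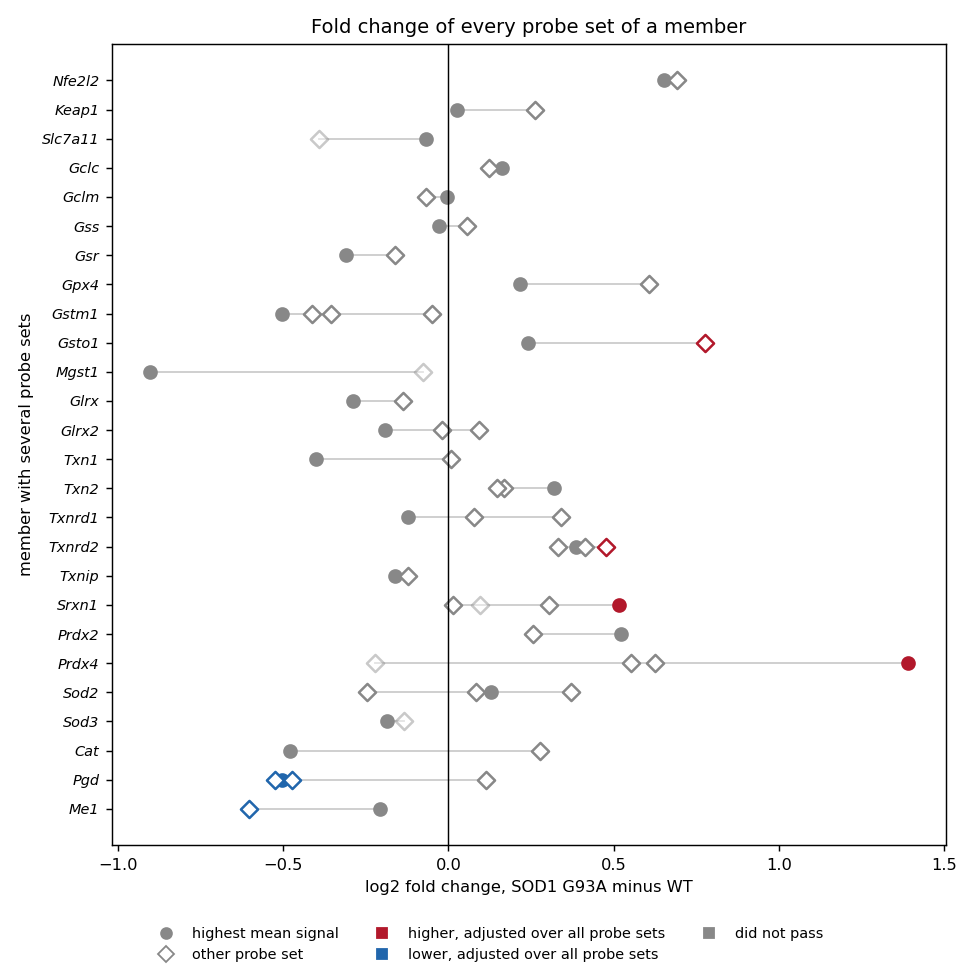
Log2 fold change (x axis, SOD1 G93A minus WT) of every probe set of the members with several, with the brightest probe set of each gene as a filled circle, the others as open diamonds (pale below a mean signal of 5), and red or blue for those past the test with p adjusted over all probe sets. The probe sets of *Prdx4* spread between -0.22 and 1.39, while all 4 of *Txnrd2* lie between 0.33 and 0.48; *Gstm1* is grey here.

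A second list held 65 symbols of NRF2 regulators, targets and antioxidant genes outside the members, except *Glrx1*, an older symbol of the member *Glrx*. Of these, 62 were measured, *Glrx1* not among them, and 6 were higher, 2 lower and 54 did not pass. The shares were 9.68% higher and 3.23% lower, against 4.09% and 2.53% of all genes. The median was 0.0061, beside 0.022 over all genes. *Sqstm1* encodes p62, the autophagy receptor that binds KEAP1. It read 9.59, 9.85 and 10.14 in SOD1 G93A and 8.53, 8.71 and 8.78 in WT (1.19, SE 0.15, adjusted p = 0.00374). *Maff*, a small MAF partner of NRF2, read 8.87, 9.09 and 9.10 in SOD1 G93A and 7.99, 7.84 and 8.20 in WT (1.01, SE 0.13, adjusted p = 0.00387). Neither gene overlapped between the genotypes.

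*Ephx1*, microsomal epoxide hydrolase, read 8.28, 8.37 and 8.48 in SOD1 G93A and 7.36, 6.97 and 7.11 in WT (1.23, SE 0.13, adjusted p = 0.00199). *Ephx1*, *Sqstm1* and *Maff* passed with each array left out in turn. With the *Gapdh* covariate none of the 8 calls of this list held, and these 3 genes gave 1.15 (adjusted p = 0.05075), 0.83 (0.0706) and 0.90 (0.0904). *Gstm5*, a mu-class transferase like *Gstm1*, moved the other way from it, at 8.50, 8.51 and 8.70 in SOD1 G93A and 7.74, 7.84 and 7.19 in WT (0.98, adjusted p = 0.0141). *Blvra*, which reduces the biliverdin that heme oxygenase makes, was 0.59 higher (adjusted p = 0.0286), and *Slc3a2*, the heavy chain that carries SLC7A11 to the membrane, 0.58 higher (0.0170), while *Slc7a11* itself had the interval given above.

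*Aldh2*, mitochondrial aldehyde dehydrogenase, read 9.21, 9.22 and 9.22 in SOD1 G93A and 9.82, 10.44 and 10.74 in WT. The SOD1 G93A arrays lay close together and below all WT arrays (-1.12, SE 0.21, adjusted p = 0.0166). *Slc40a1*, ferroportin, the iron exporter, read 10.43, 10.61 and 10.65 in SOD1 G93A and 10.98, 11.17 and 11.16 in WT (-0.54, adjusted p = 0.0274). The calls of *Gstm5*, *Blvra*, *Slc3a2*, *Aldh2* and *Slc40a1* were each lost on leaving out single arrays. Without SOD1 G93A replicate 2 or 3 the adjusted p was 0.0557 or 0.0671 for *Gstm5*, 0.0566 or 0.113 for *Blvra*, 0.0531 or 0.0724 for *Slc3a2*, 0.0674 or 0.0682 for *Aldh2* and 0.0805 or 0.0741 for *Slc40a1*. Without WT replicate 2 or 3 it was 0.0980 or 0.0851 for *Blvra*, 0.0643 or 0.0609 for *Slc3a2*, 0.0642 or 0.0531 for *Aldh2* and 0.0952 or 0.0998 for *Slc40a1*. Without SOD1 G93A replicate 1 it was 0.0526 for *Blvra* and 0.0589 for *Slc40a1*.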

How the data were processed

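RNA of CD11b-positive lumbar spinal cord cells from SOD1 G93A and WT mice was hybridised to 6 arrays, each from pooled mice. The deposited values are log2 signals that the authors made with RMA in Partek, per the submitters' notes, which give no version; the published methods name MAS 5.0 instead. Of 45101 probe sets, 64 controls were left out and 45037 fitted with limma 3.58.1 (lmFit and eBayes, R 4.3.3), with genotype as the only term. For each of 18193 genes, the brightest probe set on average was used, out of those that list no other symbol (34945 had 1 symbol, 932 several, 9160 none). Benjamini-Hochberg adjustment ran over all genes, or over all probe sets where so stated, and genes were called at an adjusted p under 0.05. The fit was tested on simulated data.

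Members and lists were chosen with earlier results of these data known. Values per array are given for members past the test, for *Nfe2l2*, *Keap1* and the classical targets, and for members differing by at least 0.5. The other members given by array, *Prdx3*, *Txn2*, *Txnrd2*, *Cat*, *Me1*, *Taldo1*, *Txn1*, *Glrx*, *Msra* and *Gsr*, were chosen after their values were seen. Genes of the second list are named only where they passed. Same-numbered arrays were not taken as pairs. Alternatives covered the test, moderation, array weights, probe set, low-signal filter, scaling, replicate block, a *Gapdh* 3′ to 5′ covariate and arrays left out. Array medians were 5.93 to 5.97. The number of arrays limits the precision.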

Additional observations from a re-analysis of the deposited data

How the results depend on the processing

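Of 678 member values under the alternatives, 605 kept their sign and their side of the threshold, 30 were no longer past it, 22 came past it and 21 turned their sign. The values that turned were of members that passed in none of those fits. With the *Gapdh* 3′ to 5′ covariate, *Txnrd1* gave 0.78, *Gss* 0.24, *Gsta4* 0.19, *Gpx1* 0.032 and *Gclm* 0.014. The mean of probe sets gave 0.0999 for *Txnrd1* and 0.014 for *Gss*, unsuffixed probe sets gave 0.28 for *Cat* and 0.056 for *Gss*, and median centring gave 0.013 for *Gclm*. Leaving out single arrays gave -0.11 to 0.082 for *Gclm*, -0.18 to 0.076 for *Gss*, -0.15 to 0.037 for *Slc7a11*, -0.38 to 0.28 for *Txnrd1* and -0.0058 to 0.27 for *Blvrb*. The cause was not tested. Against 4 members, 8 genes of the second list and 1206 genes called, Welch's test, the methods' t-test, called 0, 0 and 0 after adjustment (at an unadjusted p under 0.05, 7 members and 2690 genes). At the methods' thresholds it called 1 member and 424 genes. The equal-variance test called 0, 0 and 61. The covariate left 1 member (*Prdx4*), 0 of the second list and 94 genes, and moved the members' median to 0.059. Array weights gave 13 of the second list and 1819 genes. Without both arrays numbered 1, 8 members and 1842 genes passed. Leaving out single arrays gave 1 to 6 members, 3 to 12 of the second list, 358 to 1166 genes and a members' median of -0.12 to 0.030. The mean over a gene's probe sets lost *Srxn1*, *Gstm1* (adjusted p = 0.0647) and *Pgd* (0.105). Median centring and quantile scaling called the same 4 members.

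With the replicate number as a block, 9 members, 14 genes of the second list and 2221 genes passed, *Nfe2l2* among them (0.65, adjusted p = 0.00864). Deviations of same-numbered arrays correlated at 0.44, 0.24 and 0.029, and not every array correlated best with its own number, so the numbers were not read as pairs. The arrays numbered 1 did stand apart together. On principal component 2 of all probe sets (28% of the variance) they lay at 35.56 (SOD1 G93A) and 34.38 (WT), and the remaining arrays at -25.12 to -9.15. What these first arrays share was not tested. Signals of *Nqo1*, *Gpx7*, *Sod3* and *Me1* lay at or below the array medians, no detection call was used, and calls at 3 arrays a group rest on a spread borrowed across genes.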
